A study of Mus musculus with 6 samples.

Results

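The genes described here are 35 interferon-stimulated genes, named by mouse symbol and matched through their Ensembl identifiers to the count files. All 35 were found among the 55487 genes counted in each library, and all 35 passed the filter on low counts and were tested. They were measured in LSK cells from the bone marrow of 3 BrmKO mice and 3 wild-type (WT) mice. LSK cells are lineage negative and positive for c-KIT and SCA1, where the stem cells of blood and their earliest progeny are found. BrmKO mice lack both working copies of Brm, now named Smarca2, which encodes the motor subunit BRM of SWI/SNF nucleosome remodellers, and WT mice carry both. The labels give C56Bl/6 as the strain background of both groups, name no treatment, and give neither the age of the mice nor the part of Smarca2 that was removed. The labels name no Cre driver or other restriction of the knockout to a cell type.

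Interferons are cytokines, and those of type I are released when a cell senses foreign nucleic acid. Type I interferon acts through the receptor pair IFNAR1 and IFNAR2, and the kinases JAK1 and TYK2 then activate a complex that holds STAT2 and IRF9 and binds the interferon-stimulated response element (ISRE) in front of target genes. Type II interferon acts through IFNGR1 and IFNGR2, and many of its target genes hold the gamma-activated site (GAS). In mouse marrow, type I interferon is known to push resting blood stem cells into division, and SCA1, one of the proteins of the sort, is itself induced by interferon.

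The ISRE and GAS were searched in RefSeq promoters (build GRCm38.p6, 250 bases before to 50 after each gene's start). A promoter was found for 26 of the 35 members. The ISRE was read as GAAANNGAAA on both strands, and 15 of the 26 members held it (57.7%), against 3.99% of all 27025 genes with a promoter. The GAS was read as TTCNNNGAA, which is its own reverse complement, and 6 of the 26 members held it (23.1%), against 9.55% of all genes with a promoter. A match is a description of the letters and not of binding. The 150 bases before the start are shown for 4 members with a match in them, 3 whose libraries separated by genotype (Isg15, Ifit1, Rsad2) and the GTPase gene Igtp, which holds both motifs, each 5′ to 3′ on the gene's strand with ISRE matches in capitals. Overlapping matches run together, as in Isg15, where 3 matches share bases, and TTTC at the left of a match means that it lies on the opposite strand. They lie at chr4:156200819-156200968 (Isg15, minus strand), chr19:34640739-34640888 (Ifit1, plus strand), chr12:26456453-26456602 (Rsad2, minus strand) and chr11:58199406-58199555 (Igtp, plus strand).
Isg15: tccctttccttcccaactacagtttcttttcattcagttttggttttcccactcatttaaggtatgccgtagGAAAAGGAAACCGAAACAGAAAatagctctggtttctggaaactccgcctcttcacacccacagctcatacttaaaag
Ifit1: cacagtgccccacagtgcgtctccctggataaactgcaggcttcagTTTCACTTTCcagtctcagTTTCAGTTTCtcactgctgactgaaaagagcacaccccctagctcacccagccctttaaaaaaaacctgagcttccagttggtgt
Rsad2: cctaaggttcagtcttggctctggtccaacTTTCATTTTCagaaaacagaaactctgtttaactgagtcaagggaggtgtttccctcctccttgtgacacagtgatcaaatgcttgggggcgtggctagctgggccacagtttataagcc
Igtp: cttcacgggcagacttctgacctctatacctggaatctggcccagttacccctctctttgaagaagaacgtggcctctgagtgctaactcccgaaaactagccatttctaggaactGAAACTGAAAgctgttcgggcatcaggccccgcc
Igtp holds a GAS, TTCTAGGAA, that begins 45 bases before its start, just ahead of its ISRE. All 5 GTPases that had a promoter held the ISRE, as did Ifih1, Ddx58, Oas1a, Ifit3, Bst2, Trim30a and Stat2. Irf7, Irf9, Herc6, Oasl1, Oasl2, Ifi44, Samd9l, Xaf1 and Cmpk2 had no match to either motif in this window. Ifi35 and Ifit2 held the GAS only.

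Libraries held 28013994 to 36457027 reads in genes, and levels below are CPM (reads scaled to a common depth) on library sizes scaled by the trimmed mean of M-values (TMM). Smarca2 was at 26.9, 26.5 and 27.9 CPM in BrmKO libraries, against 174, 213 and 150 CPM in WT libraries, which fits the labels (log2 fold change -2.72 ± 0.13 SE, edgeR adjusted p = 2.97e-05). The gate genes did not pass. Kit averaged 976 ± 27.5 CPM in BrmKO and 941 ± 91.0 CPM in WT, and Ly6a, which encodes SCA1, averaged 30.5 ± 4.84 CPM in BrmKO and 24.7 ± 6.19 CPM in WT (SD, n = 3 each). The libraries numbered 3 stood apart on the second principal component in both genotypes, and their shares of reads outside genes were 9.29% in BrmKO and 8.41% in WT, against 5.79% to 6.61% in the others. In WT replicate 1 the 9 B cell markers summed to 1371 CPM, against 622 to 772 CPM in the other 5 libraries. Ighm alone was 1291 CPM of that sum, and the other 8 markers came to 80.7 CPM there, against 62.0 to 82.8 CPM in the other libraries. In bulk RNA, fewer cells of a type and less RNA per cell cannot be told apart.

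Nearly all members had a slightly higher estimate in BrmKO LSK cells than in WT LSK cells. None passed the test as a single gene with edgeR. Of the 35 members, 33 had a log2 fold change above 0, where 48.8% of all 15691 tested genes did. Their median log2 fold change was 0.24, between quartiles of 0.18 and 0.50, against a median of -0.01 over all tested genes. A fold change of at least that median was seen in 15.1% of all tested genes. At an edgeR adjusted p under 0.05, 0 of 35 members passed, and 0.14% of all tested genes did. An unadjusted p under 0.05 with a higher level in BrmKO was found for 8 of 35 members, which is 22.9%, against 3.14% of all tested genes, and with a lower level for 0 of 35, against 2.71%. With DESeq2, 1 member passed and 9 had an unadjusted p under 0.05 in either direction, against 6.42% of all tested genes. In 7 of 35 members every BrmKO library lay above every WT library, against 5.69% of all tested genes, and in 0 members every BrmKO library lay below every WT library, against 5.37%. The spread between libraries of a group had a median SD of 0.21 on the log2 CPM scale over members and 0.21 over all tested genes. It ran from 0.09 to 0.82 over members, and the tested genes were not matched to the members by level.

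**Figure D1:**
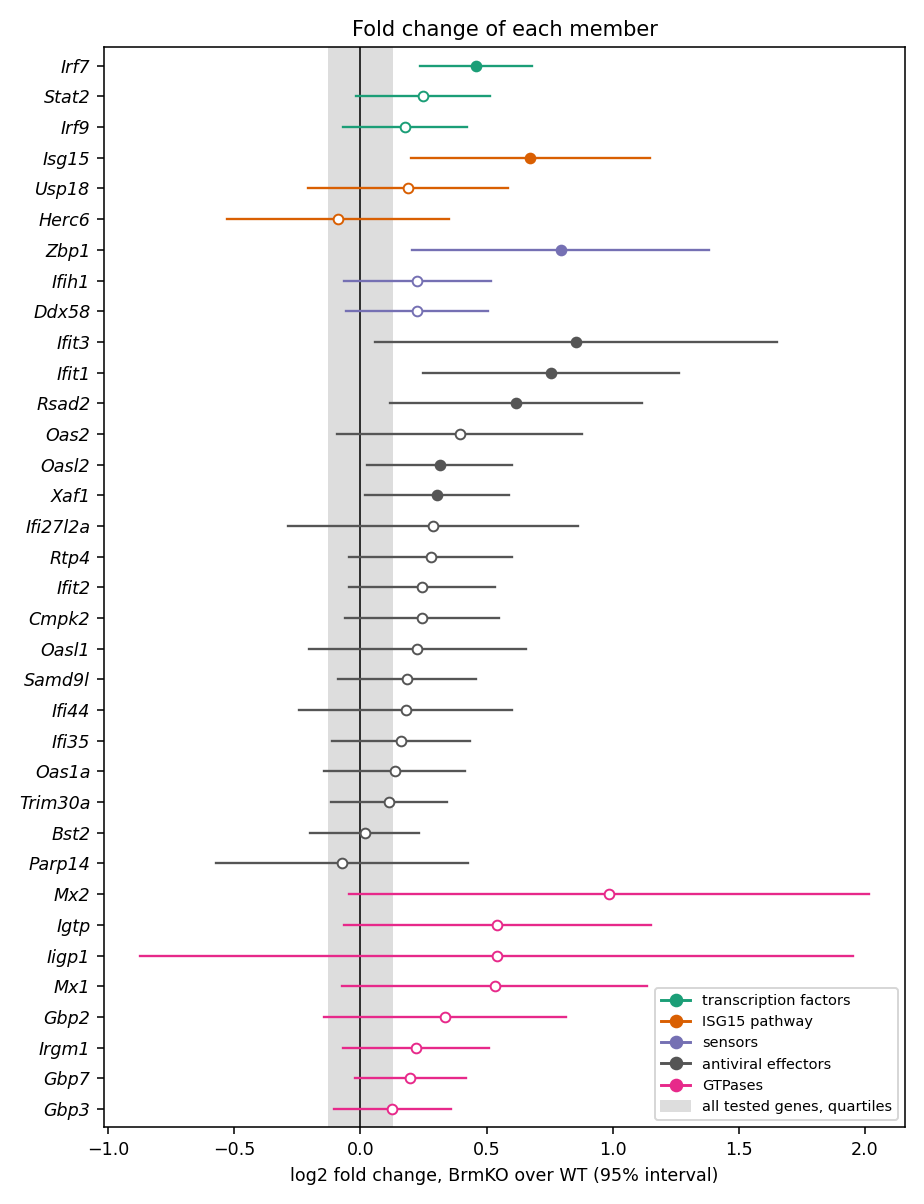
Log2 fold change, BrmKO over WT, of each of the 35 members with its 95% interval from edgeR, ordered within roles. Filled points have an unadjusted p under 0.05, the grey band spans the quartiles of all tested genes, and 33 of 35 points lie above 0 while most intervals cross it.

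Members covered a wide range of abundance. Scaled to exon length, the mean level over the 6 libraries ran from 0.953 RPKM (CPM divided by exon length in kilobases) for Herc6 to 63.4 RPKM for Bst2, and the next highest were Igtp at 37.6 and Irgm1 at 28.6 RPKM. A mean level above 5 CPM was reached by 33 of 35. Bst2, which encodes tetherin and holds budding virus at the cell surface, was at 54.0, 58.2 and 60.4 CPM in BrmKO and 53.7, 56.0 and 60.9 CPM in WT. Those ranges are nearly the same, and its log2 fold change was 0.02 with a 95% interval of -0.20 to 0.23.

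Among the transcription factors, all 3 genes had their 3 BrmKO libraries above the 3 WT libraries, against 5.69% of all tested genes. Irf7 (ENSMUSG00000025498, GRCm38 chromosome 7, 141262706 to 141266481, minus strand) encodes the factor that amplifies type I interferon transcription, and it had the smallest p of all members. It was at 60.7, 58.1 and 63.5 CPM in BrmKO libraries, against 40.6, 46.8 and 45.3 CPM in WT libraries. The lowest BrmKO library was well above the highest WT library. Irf7 overlaps Phrf1 on the opposite strand, and without strand their reads cannot be told apart there. Its log2 fold change was 0.46 ± 0.10 SE, that is 1.37-fold, with an edgeR adjusted p of 0.218. DESeq2 called it at an adjusted p of 0.00628. The adjusted p under the alternatives other than DESeq2 ran from 0.128 to 0.769, the last without WT replicate 1.

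Stat2 and Irf9 encode parts of the ISRE-binding complex. Stat2 was at 93.2, 81.9 and 82.1 CPM in BrmKO and 60.7, 76.5 and 79.6 CPM in WT, and Irf9 was at 157, 159 and 156 CPM in BrmKO and 117, 145 and 156 CPM in WT. In both genes WT replicate 1 was the low library, and WT replicate 3 lay just under the lowest BrmKO library. Irf9 overlaps Rnf31 on the same strand, where a read may count for neither. Their log2 fold changes were 0.25 ± 0.12 and 0.18 ± 0.11 SE, and neither passed (edgeR adjusted p = 0.871 and 0.960).

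The 3 genes of the ISG15 pathway had estimates on both sides of 0, and none passed. Isg15 (ENSMUSG00000035692, chromosome 4, 156199424 to 156200818, minus strand) encodes a ubiquitin-like protein that is joined to other proteins, and its promoter is shown above. It was at 12.6, 8.85 and 13.1 CPM in BrmKO libraries and 6.10, 8.12 and 7.42 CPM in WT libraries. The groups did not overlap, but BrmKO replicate 2 lay close to WT replicate 2. The fit gave a log2 fold change of 0.67 ± 0.21 SE and an edgeR adjusted p of 0.587. Isg15 shares 95.6% of its bases over 62.7% of its length with an unnamed annotated copy, so its count may miss reads that fit both. Usp18, the protease that removes ISG15 and restrains the type I receptor, had a log2 fold change of 0.19 ± 0.18. Herc6, the main ISG15 ligase in mouse, was at 7.92, 8.47 and 9.36 CPM in BrmKO and 9.44, 10.6 and 7.31 CPM in WT. Its groups overlapped, and its log2 fold change of -0.09 ± 0.20 turned to 0.036 without WT replicate 2.

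**Figure D2:**
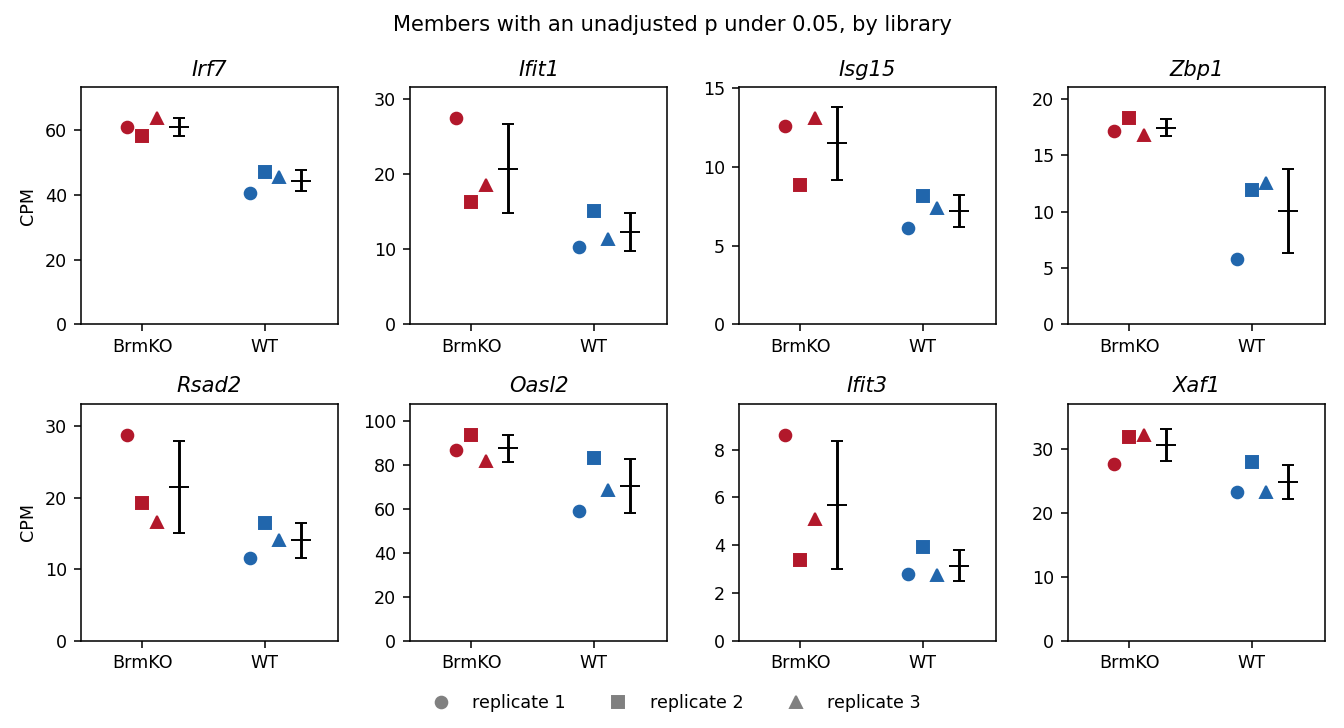
CPM of the 8 members with an unadjusted p under 0.05, by library, with BrmKO at the left and WT at the right of each panel. Marker shape gives the replicate and the black bar the mean ± SD of 3 libraries; Irf7, Isg15, Zbp1, Ifit1 and Rsad2 do not overlap between genotypes, while Oasl2, Ifit3 and Xaf1 do.

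Sensors of nucleic acid were led by Zbp1 (ENSMUSG00000027514, chromosome 2, 173206612 to 173218923, minus strand), which binds left-handed nucleic acid and can start necroptosis. It was at 17.2, 18.3 and 16.8 CPM in BrmKO libraries, against 5.77, 11.9 and 12.5 CPM in WT libraries. BrmKO libraries were tightly grouped, and WT replicate 1 lay far below the other WT libraries. The log2 fold change was 0.79 ± 0.26 SE (edgeR adjusted p = 0.653), and it was 0.51 without WT replicate 1, which moved the difference by more than any other single library. Ddx58, which encodes RIG-I, was at 78.7, 73.5 and 80.3 CPM in BrmKO and 54.3, 76.4 and 68.3 CPM in WT. Ifih1, which encodes MDA5, was at 29.8, 25.6 and 24.2 CPM in BrmKO and 20.9, 24.3 and 22.8 CPM in WT. Both RNA helicases overlapped between genotypes, by a single library each, with log2 fold changes of 0.22 ± 0.13 and 0.23 ± 0.13.

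Of the 18 antiviral effectors, 17 lay above 0 (48.8% of all tested genes did), 5 were higher at an unadjusted p under 0.05 (against 3.14%) and 0 passed the adjusted threshold (against 0.14%). Their median log2 fold change was 0.24. Ifit1 (ENSMUSG00000034459, chromosome 19, 34640871 to 34650009, plus strand) encodes a protein that binds RNA with incomplete caps. It was at 27.5, 16.3 and 18.5 CPM in BrmKO libraries, against 10.4, 15.2 and 11.4 CPM in WT libraries. BrmKO replicate 1 was far above the others, and BrmKO replicate 2 was only just above WT replicate 2. The log2 fold change was 0.76 ± 0.23 SE (edgeR adjusted p = 0.549), and it was 0.51 without BrmKO replicate 1. Ifit1, Ifit2 and Ifit3 lie together on chromosome 19, which also holds the deleted gene Smarca2, at 26605050 to 26778322. Whether this position has a part in their levels was not tested.

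Rsad2 encodes viperin, which makes a chain-ending nucleotide that stops viral polymerases. It was at 28.8, 19.3 and 16.6 CPM in BrmKO libraries and 11.5, 16.5 and 14.1 CPM in WT libraries. The groups were only just apart, again with BrmKO replicate 1 the highest, and the log2 fold change was 0.62 ± 0.22 SE (edgeR adjusted p = 0.720). Ifit3, another IFIT-family gene, was low, at 8.63, 3.38 and 5.09 CPM in BrmKO and 2.79, 3.91 and 2.74 CPM in WT. Its libraries overlapped, and it shares 97.8% of its bases with Ifit3b, so reads that fit both are lost from its count. The fit gave a log2 fold change of 0.86 ± 0.35 and an edgeR adjusted p of 0.802.

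Oasl2, a relative of the oligoadenylate synthetases that alert RNase L, was at 87.0, 93.9 and 82.0 CPM in BrmKO and 59.3, 83.4 and 68.7 CPM in WT. Only WT replicate 2 reached into the BrmKO range. Xaf1, named for binding the apoptosis inhibitor XIAP, was at 27.7, 31.8 and 32.3 CPM in BrmKO and 23.3, 27.9 and 23.2 CPM in WT, with the same library reaching over. Their log2 fold changes were 0.31 ± 0.13 and 0.30 ± 0.13 (edgeR adjusted p = 0.795 and 0.811). Parp14, an ADP-ribosyltransferase, was the effector below 0. It was at 52.7, 47.1 and 29.5 CPM in BrmKO and 35.4, 55.6 and 45.1 CPM in WT, and its log2 fold change of -0.07 ± 0.22 turned to 0.14 without BrmKO replicate 3.

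The other 11 effectors, beside Bst2, had log2 fold changes between 0.11 for Trim30a, a TRIM-family ubiquitin ligase, and 0.39 for Oas2, a synthetase of oligoadenylates. In 0 of the 11 every BrmKO library lay above every WT library, against 5.69% of all tested genes. In 0 every BrmKO library lay below, against 5.37%, and with 11 genes counts of 0 are near these shares. Their edgeR adjusted p ran from 0.902 to 0.999. Effectors with an unadjusted p under 0.05 had been set apart beforehand, so a high p follows from that choice. Cmpk2, a nucleotide kinase encoded beside Rsad2 on chromosome 12, had a log2 fold change of 0.24 ± 0.14. Samd9l, an antiviral and growth-restraining gene of blood cells, had 0.18 ± 0.12. Oasl1, which restrains IRF7 translation in mouse, had 0.23 ± 0.19, and Ifi44 0.18 ± 0.19. Rtp4, which encodes a chaperone of cell-surface receptors, had 0.28 ± 0.14, and Ifi35, the binding partner of NMI, had 0.16 ± 0.12. Ifit2, an RNA-binding relative of Ifit1, had 0.24 ± 0.13, the synthetase gene Oas1a had 0.14 ± 0.13 and Ifi27l2a had 0.29 ± 0.26. Oas1a shares 97.5% of its bases with Oas1g, and Rtp4 overlaps Masp1 on the opposite strand, so both counts are uncertain. In all, 13 members overlap another annotated gene.

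All 8 GTPases were above 0 on the log2 fold change scale, around a median of 0.43, and 48.8% of all tested genes were above 0. Of the 8, 0 were higher at an unadjusted p under 0.05, against 3.14% of all tested genes. In 0 of them every BrmKO library lay above every WT library, against 5.69%. With 8 genes, counts of 0 are near these shares. Mx2, of the dynamin-like Mx family, had the smallest p of the 8 GTPases, and the annotation lists it as a polymorphic pseudogene. It was at 4.41, 3.07 and 11.8 CPM in BrmKO and 2.65, 3.17 and 3.94 CPM in WT. The difference rested on BrmKO replicate 3, since the log2 fold change was 0.99 ± 0.46 (edgeR adjusted p = 0.860) with it and 0.20 without it. Mx1, whose protein blocks influenza virus in mouse strains with an intact copy, was at 11.1, 6.06 and 8.29 CPM in BrmKO and 5.58, 7.29 and 4.71 CPM in WT, with overlapping libraries and a log2 fold change of 0.53 ± 0.27.

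Immunity-related and guanylate-binding GTPases act on the vacuoles of intracellular microbes. Igtp (ENSMUSG00000078853, chromosome 11, 58199556 to 58207591, plus strand) was at 77.6, 104 and 88.8 CPM in BrmKO libraries, against 44.7, 48.0 and 92.8 CPM in WT libraries. WT replicate 3 lay inside the BrmKO range, while the other WT libraries were at a much lower level. The log2 fold change was 0.54 ± 0.26 (edgeR adjusted p = 0.886), and without WT replicate 3 it was 0.96 and passed (0.0367). Iigp1, another gene of the same family, was at 37.1, 37.8 and 43.7 CPM in BrmKO and 11.0, 17.8 and 53.0 CPM in WT. Without WT replicate 3, its highest library, it also passed at an adjusted p of 0.0367, against 0.999 with all libraries, while without both libraries numbered 3 Igtp had 0.0684 and Iigp1 0.0745. Without WT replicate 1 instead, the log2 fold changes were 0.36 and 0.16.

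Irgm1, a gene whose loss in mice impairs blood stem cells, was at 169, 193 and 175 CPM in BrmKO and 125, 156 and 180 CPM in WT. Its libraries overlapped through WT replicate 3, and the log2 fold change was 0.22 ± 0.13 (edgeR adjusted p = 0.951). Gbp2 was at 46.5, 67.3 and 49.9 CPM in BrmKO and 33.6, 37.7 and 58.6 CPM in WT, Gbp3 had a log2 fold change of 0.13 ± 0.10 and Gbp7 of 0.20 ± 0.10. Part of Igtp overlaps Irgm2 on the same strand, and reads in the shared part may not be counted for either.

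**Figure D3:**
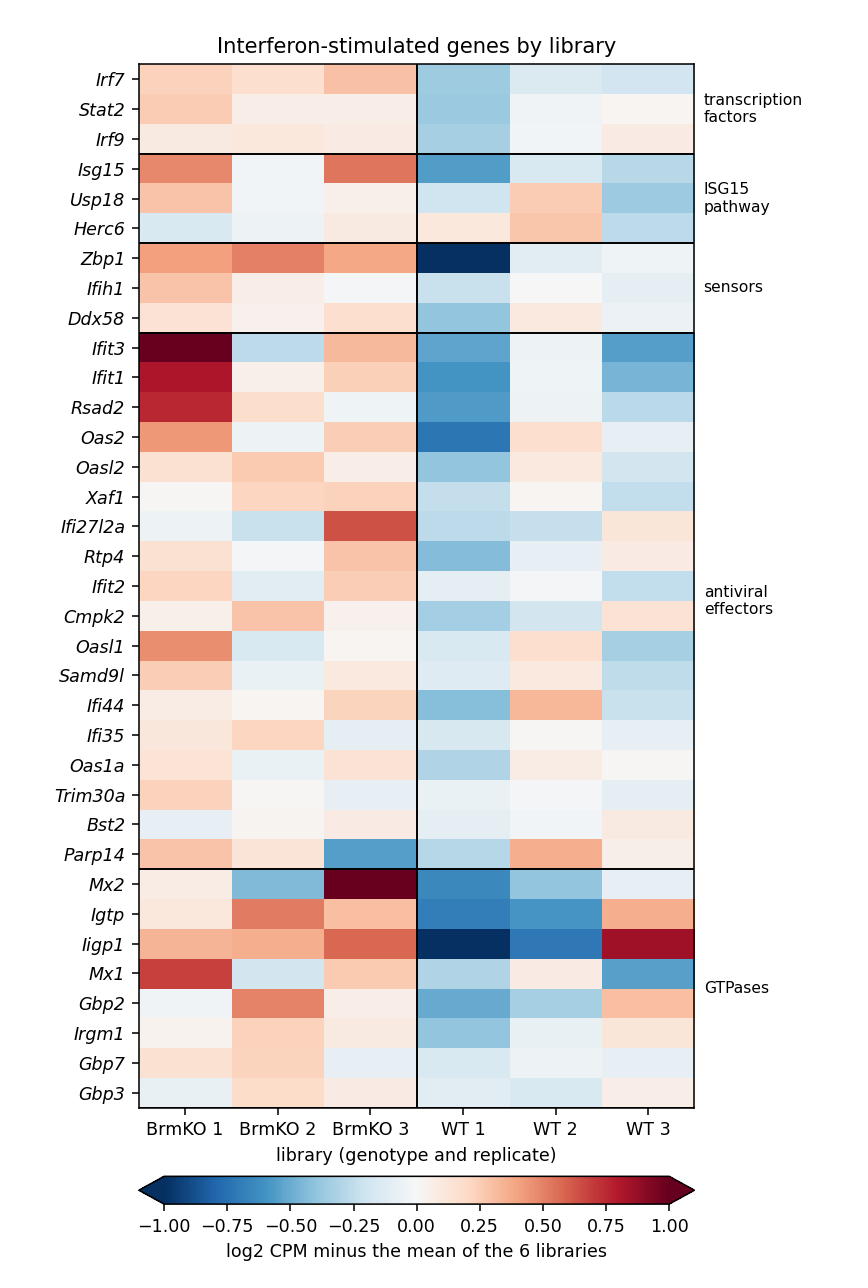
Log2 CPM of each member in each library minus its mean over the 6 libraries, with BrmKO at the left, ordered by role; colours saturate at 1 on either side. WT replicate 1 is below the mean in nearly all members, and WT replicate 3 is high in Igtp, Iigp1 and Gbp2 but low in the IFIT genes and Mx1.

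Families among the members ranked the libraries differently. Summed over the 3 IFIT genes, the level was 74.9, 50.7 and 63.3 CPM in BrmKO and 44.6, 52.0 and 42.2 CPM in WT. Summed over the 6 guanylate-binding and immunity-related GTPases, it was 530, 621 and 545 CPM in BrmKO and 388, 439 and 571 CPM in WT. WT replicate 3 was thus the lowest WT library for the IFIT genes and the highest for those GTPases, and BrmKO replicate 2 was the lowest BrmKO library for the first family and the highest for the second. The 4 OAS genes summed to 202, 182 and 185 CPM in BrmKO and 131, 185 and 156 CPM in WT. These families were compared after their values were seen, and the difference between them was not tested.

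WT replicate 1 was the lowest of the 6 libraries in 24 of the 35 members, against 15.8% of all tested genes, and WT replicate 3 was the lowest in 9, against 19.6%. BrmKO replicates 1, 2 and 3 were the highest library in 11, 10 and 9 members, against 16.5%, 15.1% and 16.4% of all tested genes. WT replicates 1, 2 and 3 were the highest in 0, 3 and 2 members, against 14.9%, 15.3% and 21.8% of all tested genes. After subtracting each gene's mean over the 6 libraries, the members averaged, in log2 CPM, 0.24, 0.08 and 0.19 in BrmKO and -0.38, -0.04 and -0.08 in WT. BrmKO replicate 2 and WT replicate 2 were thus close together. The members' summed level was 1778 ± 33.9 CPM in BrmKO and 1494 ± 183 CPM in WT (SD, n = 3 each). WT replicate 1 had 1286 CPM, against 1568 and 1628 CPM in the other WT libraries.

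**Figure D4:**
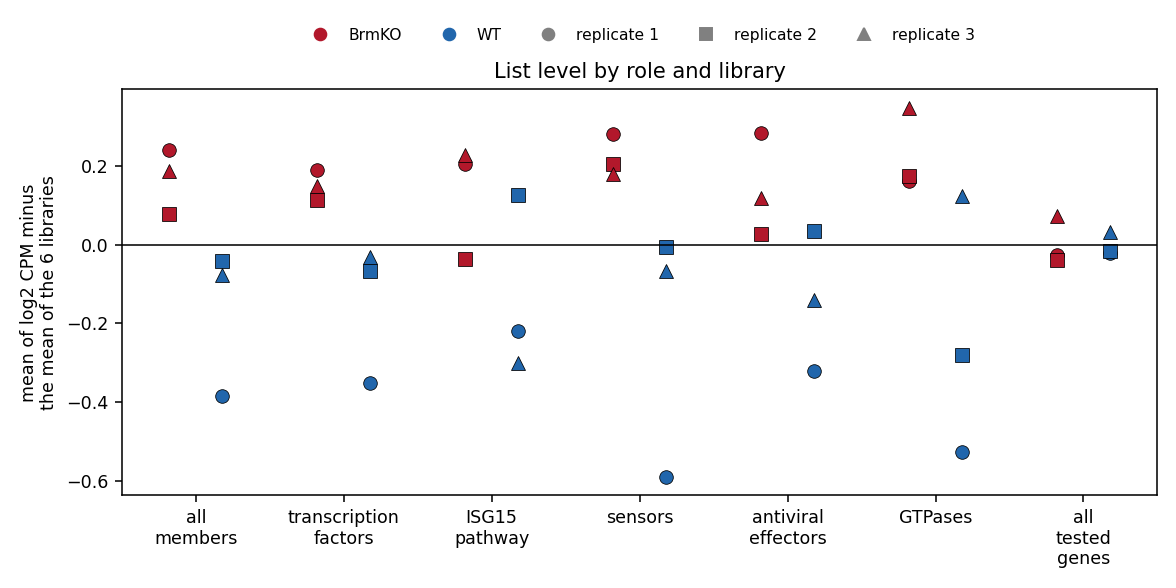
Mean over the members of each role of log2 CPM minus the mean of the 6 libraries, with BrmKO at the left and WT at the right of each role. Each point is a library; WT replicate 1 is lowest in all roles but the ISG15 pathway, and all tested genes lie near 0.

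Without WT replicate 1, 32 of 35 members still had a log2 fold change above 0, against 48.7% of the 16224 genes then tested, and the median was 0.17. Only 4 had an unadjusted p under 0.05 in that fit, Irf7, Isg15, Zbp1 and Ifit1, which is fewer than the 8 with all libraries and stood against 2.35% of all genes then tested. Every BrmKO library lay above WT replicates 2 and 3 in 7 members, the same genes as with all WT libraries, against 9.07% of all tested genes. Among replicates 1 and 2 only, both BrmKO libraries lay above both WT libraries in 20 members, against 20.0% of all tested genes. Without WT replicate 2, 14 members had an unadjusted p under 0.05 in either direction, against 5.2% of all genes then tested. Without WT replicate 3, 13 members did, against 8.01%.

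Markers of other cells were set beside these levels. Plasmacytoid dendritic cells make interferon and carry Bst2 and Irf7 at high level. Their 10 markers summed to 173 to 205 CPM in BrmKO and 179 to 207 CPM in WT, and 2 of 7 tested had a log2 fold change above 0. Tcf4, which is not limited to these cells, made up 124 to 136 CPM of the sum in every library, and the other 9 markers summed to 48.6 to 70.3 CPM in BrmKO and 51.1 to 82.0 CPM in WT. Among those 9, Siglech had 0, 9 and 38 reads in BrmKO and 37, 4 and 19 reads in WT, and Klk1 had no read in any library. Spib had 7, 12 and 7 reads in BrmKO and 0, 0 and 7 reads in WT. Cd209d had 2 reads in WT replicate 3 and none in the other libraries. The 2 tested markers above 0 were Tcf4 (log2 fold change 0.05 ± 0.08 SE) and Pacsin1 (0.51 ± 0.54 SE). Ccr9, Cox6a2, Ly6d and Lair1 were detected in every library. Over the 6 libraries Ccr9 was at 7.42 to 17.3 CPM, Cox6a2 at 4.31 to 9.11 CPM, Ly6d at 4.15 to 8.34 CPM and Lair1 at 25.3 to 50.6 CPM. The 11 monocyte and macrophage markers summed to 275 to 322 CPM in BrmKO and 311 to 382 CPM in WT, highest in WT replicate 1, and 3 of 10 tested lay above 0. Of the B cell markers given above, 0 of 7 tested lay above 0. The 8 classical dendritic cell markers summed to 39.9, 51.1 and 49.5 CPM in BrmKO and 36.0, 29.4 and 48.2 CPM in WT, and 5 of 7 tested lay above 0. Markers of megakaryocytes and platelets summed to 387 to 546 CPM in BrmKO and 576 to 757 CPM in WT, with 0 of 5 tested above 0. The ranges overlapped for neutrophils (14.8 to 27.9 CPM in BrmKO, 14.4 to 37.3 CPM in WT). They also overlapped for erythroid cells (463 to 778 CPM in BrmKO, 511 to 848 CPM in WT). For T and NK cells the full sums overlapped too (240 to 248 CPM in BrmKO, 242 to 281 CPM in WT). Nkg7 alone was 225 to 258 CPM of the T and NK sum. The other 8 markers came to 11.43, 14.28 and 13.73 CPM in BrmKO and 23.44, 17.69 and 15.05 CPM in WT, without overlap. Trbc1 was lower in BrmKO (log2 fold change -0.86 ± 0.21 SE) and Ncr1 was higher (2.22 ± 0.55 SE), and neither passed. Of 6 tested, 3 lay above 0. The 9 stromal and endothelial markers summed to 355 to 426 CPM in BrmKO and 355 to 526 CPM in WT, again highest in WT replicate 1. The part of these cells in the members' levels was not tested.

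Ligand transcripts were nearly absent. Of 18 type I interferon genes, 14 had no read in any library, and the list held 16 reads over the BrmKO libraries and 3 over the WT libraries. Ifnb1 had no read, which allows up to 0.0828 to 0.105 CPM per library. Type II and III ligands held 1 read over the BrmKO libraries and 5 over the WT libraries. Several interferon alpha genes are near-identical copies of each other, so their counts are uncertain.

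Of 6 receptor genes, 5 were tested, 3 above 0 and 2 below, and 0 passed. Ifnlr1, of the type III receptor, had too few reads to be tested. Ifngr2, the signalling chain of the type II receptor, was at 53.0, 52.1 and 61.5 CPM in BrmKO libraries, against 37.5, 39.3 and 40.6 CPM in WT libraries. The groups were wide apart, and the log2 fold change was 0.50 ± 0.10 SE (edgeR adjusted p = 0.191). Its partner Ifngr1 had a log2 fold change of 0.04 ± 0.12. The type I chains Ifnar1 and Ifnar2 averaged 165 ± 8.63 and 144 ± 7.53 CPM in BrmKO, against 149 ± 11.5 and 156 ± 21.4 CPM in WT (SD, n = 3 each).

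Of 9 genes of the signalling relay, 0 passed and 0 had an unadjusted p under 0.05, with 5 above 0. Irf2, Jak1 and Nmi came first by p, at log2 fold changes of 0.20 ± 0.10, -0.18 ± 0.10 and 0.16 ± 0.10. Of 17 tested genes of upstream nucleic acid sensing, 0 passed, and an unadjusted p under 0.05 was found for 4 higher and 1 lower, against 3.14% and 2.71% of all tested genes. Tlr3, the endosomal receptor of double-stranded RNA, was at 4.71, 6.45 and 6.34 CPM in BrmKO and 2.35, 2.62 and 3.59 CPM in WT. The groups did not overlap (log2 fold change 1.04 ± 0.27, edgeR adjusted p = 0.369). Aim2, a sensor of cytosolic DNA, had -0.33 ± 0.12, and Eif2ak2, the kinase PKR, had 0.25 ± 0.09. Of 11 tested negative regulators, 0 passed and 0 had an unadjusted p under 0.05, with a median of 0.01. Samhd1, Adar and Rnaseh2c had the smallest p of them, at 0.20 ± 0.12, 0.17 ± 0.12 and -0.12 ± 0.10.

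A wider list of interferon-stimulated genes that are not members was also read. Of its 86 tested genes, 66 lay above 0 (76.7%, against 48.8% of all tested genes), the median was 0.16 and 0 passed. An unadjusted p under 0.05 was found for 16 higher and 1 lower, against 3.14% and 2.71% of all tested genes. In 24 genes every BrmKO library lay above every WT library (27.9%, against 5.69% of all tested genes), and in 3 genes every BrmKO library lay below, against 5.37%. Ifi209, a PYHIN-family gene, was the exception among the 3 genes with the smallest p. It was at 36.7, 38.0 and 38.9 CPM in BrmKO libraries, against 55.5, 57.9 and 59.7 CPM in WT libraries. The genotypes were far apart, in the direction opposite to most of the list, with a log2 fold change of -0.61 ± 0.09 (edgeR adjusted p = 0.0538). Apol9b and Phf11d, the other two, had 2.02 ± 0.48 and 1.05 ± 0.27 (edgeR adjusted p = 0.306 and 0.376). Ifi209 and Apol9b have near-identical relatives, so their counts are uncertain.

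**Figure D5:**
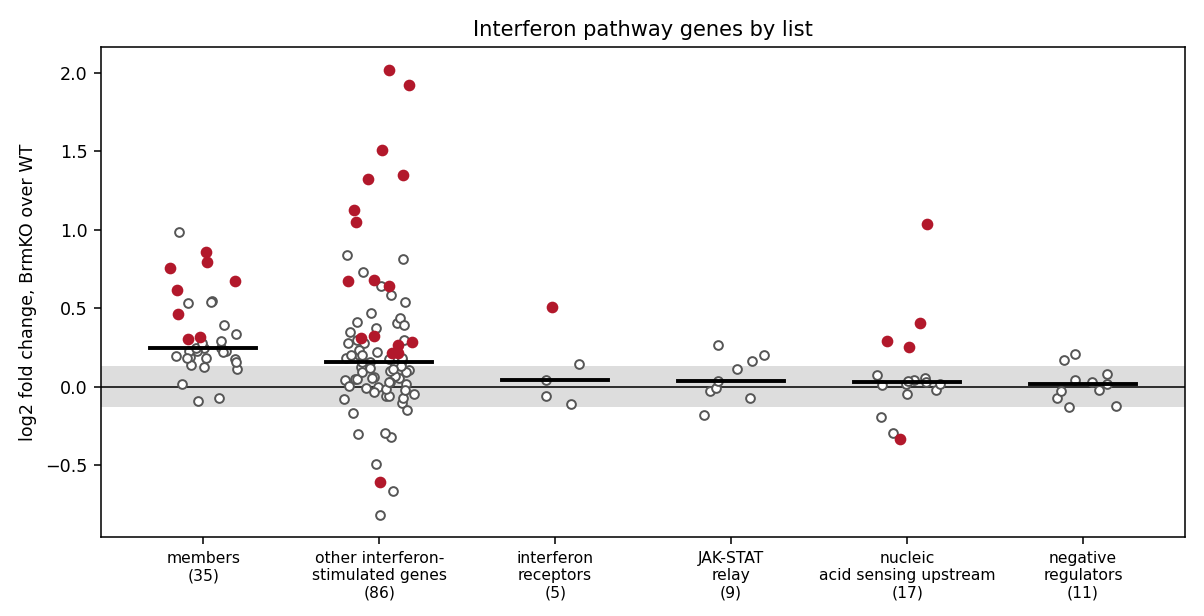
Log2 fold change, BrmKO over WT, of every tested gene of the members and of 5 other interferon lists, with the number of genes under each name. Filled points have an unadjusted p under 0.05, black bars are medians and the grey band spans the quartiles of all tested genes. The members and the other interferon-stimulated genes have medians of 0.24 and 0.16. The receptor, relay, sensing and regulator lists have medians of 0.04, 0.04, 0.03 and 0.01, while single genes reach 0.50 among receptors and 1.04 in sensing.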

How the data were processed

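RNA was measured in 6 libraries of sorted LSK cells, 3 BrmKO and 3 WT, each labelled as a separate sample. The deposited files give raw counts of reads for each Ensembl gene. Per the submitters' processing notes, bcl2fastq, FastQC, STAR, HTSeq and DESeq2 were used with build GRCm38, while no version, strand setting or annotation release is given. Per the labels' protocols, polyadenylated RNA was amplified with a low-input SMART-Seq kit, which marks no strand and has no molecular identifiers, so count floors cover counting error only. The 5 rows that name no gene stayed out of library sizes (ambiguous reads alone were 6.23% to 6.47% of each library). Symbols and positions came from GENCODE M21 by identifier, for 55227 of 55487 genes.

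BrmKO was compared with WT by edgeR's quasi-likelihood test (edgeR 4.0.16, R 4.3.3, TMM factors, filterByExpr, robust dispersion, no covariate), with Benjamini-Hochberg adjustment over 15691 genes and a threshold of 0.05. Positive values are higher in BrmKO. Alternatives were RLE size factors, DESeq2 1.42.0, limma 3.58.1 with voom, no low-count filter, a replicate block, leaving out libraries and leaving out members with a near-identical copy (minimap2, at least 95% identity over 50% of length). On simulated counts of 15254 genes the test recovered 0% of 1.25-fold, 34.7% of 1.5-fold, 59.2% of 2-fold and 81.2% of 4-fold changes, and 7.61% of its calls were false. Every pair of libraries differed by more than counting noise.

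Members and lists were chosen with earlier results of these data known, so no list was given a test. Values by library are given for members with an unadjusted p under 0.05, the smallest p of each role, the 3 highest levels per length and those below 0. Up to 3 genes per other list, by smallest p, and the receptor genes were named likewise, and other names were chosen after their values were seen. A gene that the rule also names is not reported here.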

Additional observations from a re-analysis of the deposited data

How the results depend on the processing

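Under RLE size factors, limma-voom, no low-count filter and a replicate block, 33 of 35 members had a log2 fold change above 0 and 0 passed the adjusted threshold. With DESeq2, 1 member passed, Irf7, and 150 of all tested genes passed, against 22 with edgeR. With no low-count filter 58 of all genes passed. Leaving out a library in turn gave 0 to 2 members past the threshold, 4 to 14 with an unadjusted p under 0.05 (against 4.24% to 8.01% of all genes in those fits), 32 to 35 above 0, a median of 0.17 to 0.30 and 6 to 36 of all genes past the threshold. Without both libraries numbered 3, 12 members had an unadjusted p under 0.05, against 10.2% of all genes, and the median was 0.29. Without the 3 members that have a near-identical copy, 30 of 32 lay above 0. The direction reversed in a few members with log2 fold changes near 0 or resting on a single library. Over the fits that leave out a library, Herc6 ran from -0.23 to 0.036, Parp14 from -0.24 to 0.14, Bst2 from -0.023 to 0.068 and Ifi27l2a from -0.020 to 0.45, and without both libraries numbered 3 Parp14 was 0.14 and Herc6 -0.29. The cause was not tested. With the replicate number as a block, 12 members had an unadjusted p under 0.05, against 9.23% of all genes, and 25 of all genes passed. The deviations of same-numbered libraries from their group means correlated at 0.05, 0.01 and 0.19, and those of BrmKO replicate 1 and WT replicate 2 at 0.17. Since not every same-numbered pair was above 0.1, the numbers were not taken to pair the samples. The libraries numbered 3 were nonetheless nearer to each other (chi-square per degree of freedom 20.9) than to any other library (32.3 to 52.5).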
